A study of Mus musculus with 9 samples.

Results

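Retromer and the sorting nexins that work with it were examined in mouse blastocysts, as 9 genes out of the 22564 in the expression table: the core subunits Vps26a, Vps26b, Vps29 and Vps35, the membrane-bending sorting nexins Snx1, Snx2, Snx5 and Snx6, and Snx27. The genes were found by their symbols. Vps26b was picked because its level was higher after artificial oocyte activation, and the other 8 are the rest of the complex, so the values of Vps26b in the ICSI-AOA group are a description of how it was chosen and carry no test.

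The embryos were C57BL/6 blastocysts collected on day 3.5 after intracytoplasmic sperm injection (ICSI). The ICSI group received normal sperm and no ionomycin. The ICSI-AOA group received normal sperm followed by ionomycin, a calcium ionophore used for artificial oocyte activation (AOA). The dICSI-AOA group received activation-deficient sperm, prepared by detaching sperm heads from tails and incubating them, followed by the same ionophore treatment. All groups share injection and culture, and there is no group of uninjected or naturally fertilised embryos. A group with activation-deficient sperm and no ionomycin was not analysed here, so the sperm preparation varies only among embryos that also received ionomycin. Each group had 3 libraries, each from a pool of 5 blastocysts. The study describes these as independent replicates, while the labels do not say whether they came from separate cultures.

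Retromer is an endosomal coat that selects transmembrane proteins for retrieval to the trans-Golgi network or the plasma membrane instead of degradation in lysosomes. Vps35 is its elongated backbone, Vps29 binds one end of Vps35, and Vps26 binds the other end through either of a pair of paralogs, Vps26a and Vps26b. In mammals Snx1 or Snx2 pairs with Snx5 or Snx6 to form membrane tubules through their BAR domains, and Snx27 recruits cargo that carries a PDZ-binding tail.

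Only a small portion of the complex was measured at this depth. The libraries held 128176 to 172307 fragments each, so 1 fragment was worth 5.80 to 7.80 CPM (fragments per 1000000 in the library), and a count of 0 allowed a level of up to 17.4 to 23.4 CPM (3 fragments, counting error only). The 9 genes held 443 fragments in all 9 libraries together. Of these, 371 were Vps26b, which had more fragments than 97.2% of the genes in the table. Vps29 had 54, Snx27 had 10, Snx1 had 4, and Vps26a and Snx5 had 2 each. Vps35, Snx2 and Snx6 were at 0 in all 9 libraries. A gene was tested where its mean FPKM (fragments scaled by transcript length and library size) was at least 1. Vps26b and Vps29 passed, 4 of the other 7 were detected but did not, and the 3 genes at 0 did not. The filter uses the mean over all libraries, so a gene can pass through the group in which it is high.

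**Figure D1:**
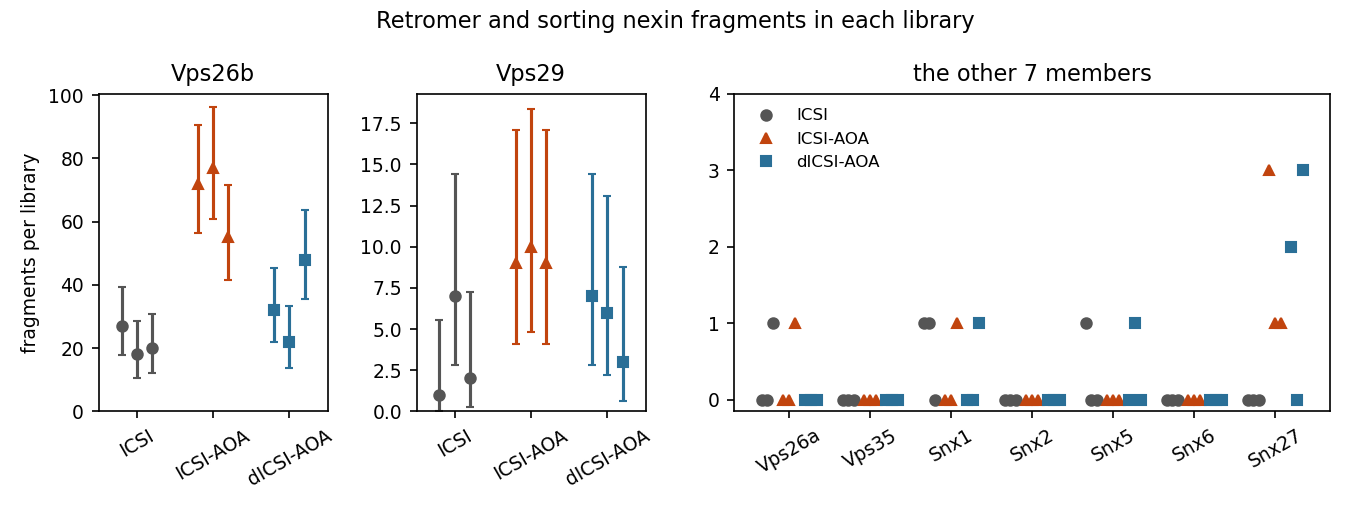
Fragments per library of Vps26b, Vps29 and the other 7 genes, with 1 point per library, coloured by group, and bars on Vps26b and Vps29 for the 95% Poisson interval of each count. Vps26b lies between 55 and 77 fragments in the ICSI-AOA libraries and between 18 and 27 in the ICSI libraries, and none of the other 7 genes exceeds 3 fragments in any library.

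Vps26b, the alternative arrestin-like cargo arm of the complex, lies on chromosome 9 of mm10 (27007771 to 27030065, minus strand) and has 2 annotated transcripts. In the ICSI libraries 2, 5 and 6 it had 27, 18 and 20 fragments. In the ICSI-AOA libraries 1, 4 and 5 it had 72, 77 and 55 fragments, and in the dICSI-AOA libraries 1, 4 and 5 it had 32, 22 and 48. Every ICSI-AOA library was above every library of the other groups, while the dICSI-AOA and ICSI libraries overlapped. Relative to library size the means were 152 ± 53.9 CPM in ICSI, 447 ± 81.6 in ICSI-AOA, with 214 ± 75.1 in dICSI-AOA (SD, n = 3). In the deposited FPKM the means were 2.33 ± 0.394, 8.37 ± 2.14 and 4.31 ± 1.45 in the same order (SD, n = 3). In these bulk samples fewer cells expressing a gene and less RNA per cell cannot be told apart.

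The FPKM of single libraries gave the same separation of ICSI-AOA. Vps26b FPKM was 2.74, 1.95 and 2.30 in ICSI, 10.7, 7.90 and 6.50 in ICSI-AOA, with 4.32, 2.85 and 5.75 in dICSI-AOA. On this scale the dICSI-AOA libraries were also all above the ICSI libraries. In CPM, dICSI-AOA library 4 (145) and library 1 (205) were below ICSI library 2 (211). The share of tested genes that separated in FPKM was not counted. With the deposited scaling the median log2 difference of all tested genes between dICSI-AOA and ICSI was 0.36. The deposited scaling raised or lowered a library's counts by a factor of 0.867 to 1.28, and ICSI library 2 had the lowest factor. FPKM per estimated count of Vps26b differed by a ratio of only 1.01 between the highest and lowest library.

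**Figure D2:**
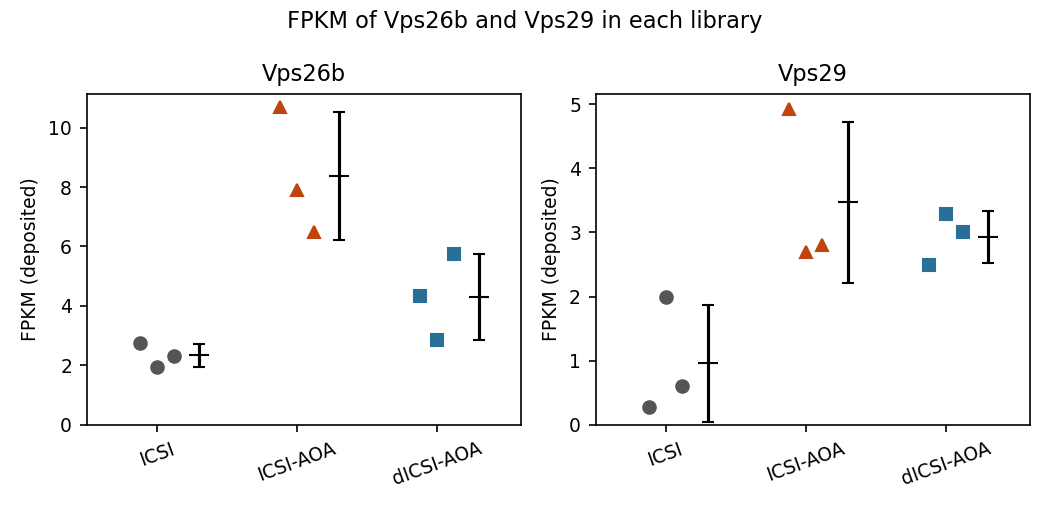
Deposited FPKM of Vps26b and Vps29, with 1 point per library and the mean ± SD of the 3 libraries in black beside each group. The ICSI-AOA mean is 8.37 for Vps26b and 3.47 for Vps29, against 2.33 and 0.957 in ICSI.

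The fitted difference of Vps26b between ICSI-AOA and ICSI was 1.52 on the log2 scale (SE 0.28), and that between dICSI-AOA and ICSI-AOA was −1.04 (SE 0.27); both involve the values used to choose the gene and are descriptions. The comparison of dICSI-AOA with ICSI shares the ICSI controls with the one used for the choice. The ICSI-AOA libraries enter it through the expression filter, the scaling between libraries and the common estimate of the spread. There the difference of Vps26b was 0.48 (SE 0.30), which did not pass the test (edgeR quasi-likelihood test, Benjamini-Hochberg adjusted p = 0.802). With only the libraries of these groups in the fit it was 0.48 (SE 0.32, edgeR adjusted p = 0.852). An exact two-sided permutation test on CPM gave p = 0.4, where 3 libraries against 3 cannot go below 0.1. The unadjusted p of edgeR fell under 0.05 with the deposited scaling (log2 difference 0.88, adjusted p = 0.250), without ICSI library 2 (0.76, adjusted p = 0.675) and without dICSI-AOA library 4 (0.68, adjusted p = 0.714). The deposited scaling also moved the median of all tested genes from −0.01 to 0.36 in this comparison, and relative to that median Vps26b differed by 0.52; the calls over all tested genes went from 132 higher and 151 lower to 510 higher and 45 lower. Without dICSI-AOA library 5 the difference was 0.18.

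Nearly all VPS26 fragments came from Vps26b. It accounted for 371 of the 373 fragments of the paralog pair, 99.5% (95% Wilson interval 98.1 to 99.9, counting error only), and for 98.8% of their summed FPKM. Vps26a, the paralog on chromosome 10 (62455235 to 62486805, minus strand), had 1 fragment in ICSI library 6, 1 in ICSI-AOA library 5 and 0 in the other libraries. Reads shared by the paralogs could have been assigned to either, and this was not tested.

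Vps29, the small scaffold subunit, lies on chromosome 5 of mm10 (122354369 to 122364984, plus strand). It had 1, 7 and 2 fragments in ICSI libraries 2, 5 and 6. It had 9, 10 and 9 fragments in the ICSI-AOA libraries and 7, 6 and 3 in the dICSI-AOA libraries. The ICSI-AOA libraries were close to each other and above every library of both other groups, whereas ICSI and dICSI-AOA overlapped. In CPM the means were 20.8 ± 17.4 in ICSI, 61.3 ± 4.50 in ICSI-AOA, with 34.2 ± 14.0 in dICSI-AOA (SD, n = 3).

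Vps29 was the only gene of the 8 other than Vps26b that could be tested, and it rose in ICSI-AOA against ICSI by 1.37 on the log2 scale (SE 0.60, edgeR), under the study's thresholds, a fold change above 1.3 with p under 0.05 before adjustment. The same thresholds called 7.06% of all 4304 tested genes in this comparison, and 3% were called higher. Vps29 failed the correction over all tested genes (edgeR adjusted p = 0.611), which 0.0232% of genes passed. That share is 1 gene, Vps26b itself, which was chosen for this rise. An exact two-sided permutation test on CPM gave p = 0.1, the smallest it can give, and in 7.41% of tested genes the ICSI-AOA libraries were all above the ICSI libraries as they were here. The call was lost with DESeq2 (log2 difference 1.41), at a mean FPKM minimum of 5, where Vps29 was not tested, and without ICSI library 2 (1.02), ICSI library 6 (1.13), ICSI-AOA library 4 (1.32) or ICSI-AOA library 5 (1.39). With the deposited scaling the median of all tested genes was 0.25 in this comparison, and Vps29 differed by 1.36 relative to it; 306 genes were then called higher and 45 lower, against 129 and 175. Without ICSI library 5, the ICSI library with the most Vps29 fragments, the difference was 2.36.

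In dICSI-AOA against ICSI, Vps29 differed by 0.54 (SE 0.65, edgeR adjusted p = 0.918) and was not called, where 6.58% of tested genes were called and 0.0232% passed the correction. In dICSI-AOA against ICSI-AOA it differed by −0.83 (SE 0.55, edgeR adjusted p = 0.816) and was not called, where 6.62% were called and 0.139% passed the correction. All 3 dICSI-AOA libraries were below all 3 ICSI-AOA libraries in that last comparison, and 12% of tested genes had groups that did not overlap. Vps29 FPKM gave a different order from its fragments: the values were 0.269, 2.0 and 0.606 in ICSI, 4.92, 2.70 and 2.80 in ICSI-AOA, with 2.49, 3.28 and 3.01 in dICSI-AOA. The FPKM that 1 estimated count of Vps29 was worth differed 3.19-fold between libraries and was greatest in dICSI-AOA library 5, whose 3 fragments gave the 3.01. With limma on log2(FPKM + 1) the dICSI-AOA against ICSI difference was 1.10 (adjusted p = 0.460), which passed the thresholds, and with log2(FPKM + 0.1) it was 1.88 (limma adjusted p = 0.451) and passed too. These fits called 9.11% and 8.90% of tested genes higher and 0.976% lower in each. The median of all tested genes was 0.28 and 0.35 in these limma fits, which stood on the deposited scaling.

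The other core subunit, Vps35, lies on chromosome 8 (85260392 to 85299802, minus strand) and was at 0 throughout. Its presence could therefore not be read here, and the parts of depth and of the strand setting in this zero were not tested. Over the 9 libraries a count of 0 allows up to 2.19 CPM, which stands against 271 CPM for Vps26b and 39.4 for Vps29 over the same libraries.

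The sorting nexins were near the limit of detection. Snx27, the PDZ-domain member, lies on chromosome 3 (94497544 to 94582716, minus strand) and had 0, 0 and 0 fragments in ICSI, 3, 1 and 1 in ICSI-AOA, with 2, 0 and 3 in dICSI-AOA. Its summed level was 1.61 times the floor of 3 fragments over the ICSI group in ICSI-AOA, and 1.56 times that floor in dICSI-AOA. These ratios are not lower bounds. The Poisson interval of the 5 fragments in each ionomycin group runs from 1.62 to 11.7 fragments, so a level below that floor is not excluded. Snx27 was below the filter, and with no filter it was called higher in ICSI-AOA (edgeR adjusted p = 0.785) and in dICSI-AOA (edgeR adjusted p = 0.798) against the same ICSI libraries. That fit called 1.93% and 1.79% of 12128 genes higher in these comparisons, and each call of Snx27 sets 5 fragments against 0. Snx1 (chromosome 9, 66088133 to 66126587, minus strand) had 1 fragment in each of ICSI libraries 2 and 5, ICSI-AOA library 5 and dICSI-AOA library 5. Snx5 (chromosome 2, 144250123 to 144270906, minus strand) had 1 fragment in ICSI library 2 and 1 in dICSI-AOA library 4. Snx2 on chromosome 18 and Snx6 on chromosome 12 (54746349 to 54795703, minus strand) had none. No difference between groups could be read from Snx1, Snx2, Snx5 or Snx6.

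Fragments of some of these genes cannot be assigned with certainty, because they share exon sequence with a gene on the opposite strand and the strand setting used in counting is not given in the sources used here. Exons of Vps29 and Fam216a overlap by 340 bp, those of Vps35 and Orc6 by 171 bp and those of Snx5 and Mgme1 by 206 bp. Fam216a had 8, 6 and 6 fragments in ICSI, 4, 6 and 4 in ICSI-AOA, with 4, 9 and 8 in dICSI-AOA, so its ICSI-AOA libraries were not above the others as those of Vps29 were. Orc6, a subunit of the origin recognition complex, was at 0 like Vps35, and Mgme1, a mitochondrial nuclease, had 11 fragments in all. No exon on the opposite strand overlaps Vps26b.

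Of the 9 genes, 5 start within 1000 bp of a gene transcribed the other way, and 2 of these are the genes that were measured. Vps26b starts 110 bp from Ncapd3, a condensin subunit that had 8 fragments in all libraries together. Vps29 starts 136 bp from Rad9b, a paralog of a checkpoint clamp subunit, which had 1566. Exons of Rad9b overlap those of Pptc7 on the opposite strand by 1002 bp, so some of these may belong to Pptc7. The sequence between the divergent starts is shown for these 2 pairs because the measured members face partners of very different level across so short a gap. It is from RefSeq (GRCm38.p6), runs 5′ to 3′ on the strand of the retromer gene, and has the letters TGACG, a half-site of the cAMP response element, in capitals. The first interval is chr9:27030095-27030164 on the minus strand and the second is chr5:122354206-122354327 on the plus strand, of which 28 bases fall in a GENCODE exon of the pair.
Vps26b to Ncapd3: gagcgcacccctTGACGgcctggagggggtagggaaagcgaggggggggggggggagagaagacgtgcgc
Vps29 to Rad9b: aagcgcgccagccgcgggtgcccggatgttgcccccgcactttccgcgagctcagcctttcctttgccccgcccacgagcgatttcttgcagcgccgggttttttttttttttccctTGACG
The Vps26b interval is 70 bases long with 72.9% G+C and 5 CpG dinucleotides. The Vps29 interval is 122 bases long with 61.5% G+C and 14 CpG dinucleotides. Both hold TGACG, searched on both strands, which 8.14% of all 32851 promoters hold in the 70 bases before the start and 11.8% in the 122 bases before it. The GC box letters GGGCGG, also searched on both strands, are in the Vps29 interval and not in the Vps26b interval, and 26.6% of promoters hold them in the last 122 bases. The letters of the CCAAT box are in neither interval. The same holds for the TATA box letters TATAAA. It also holds for TGCGCA, the half-site of the factor NRF1. The full RefSeq promoter of Vps26b does hold the NRF1 half-site, while that of Vps29 does not. Of all 32851 promoters, 7.76% hold it. The absence from the Vps26b interval therefore applies to the bases shown and not to its whole promoter. These matches describe letters only. The RefSeq promoter table held 6 of the 9 genes.

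Fragments assigned to Rad9b did not follow those of Vps29 across libraries. Rad9b had 142 to 215 fragments per library, and Pptc7, which overlaps it on the opposite strand, had 28 in all. Without the strand setting, fragments of Rad9b and Pptc7 cannot be told apart. The log2 level of Rad9b correlated with that of Vps29 by r = −0.45 and with that of Vps26b by r = −0.02. These values over the 9 libraries describe libraries that share group and depth. Vps26b and Vps29 correlated by r = 0.44. Thyn1, the gene downstream of Vps26b, had 0 to 3 fragments per library.

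**Figure D3:**
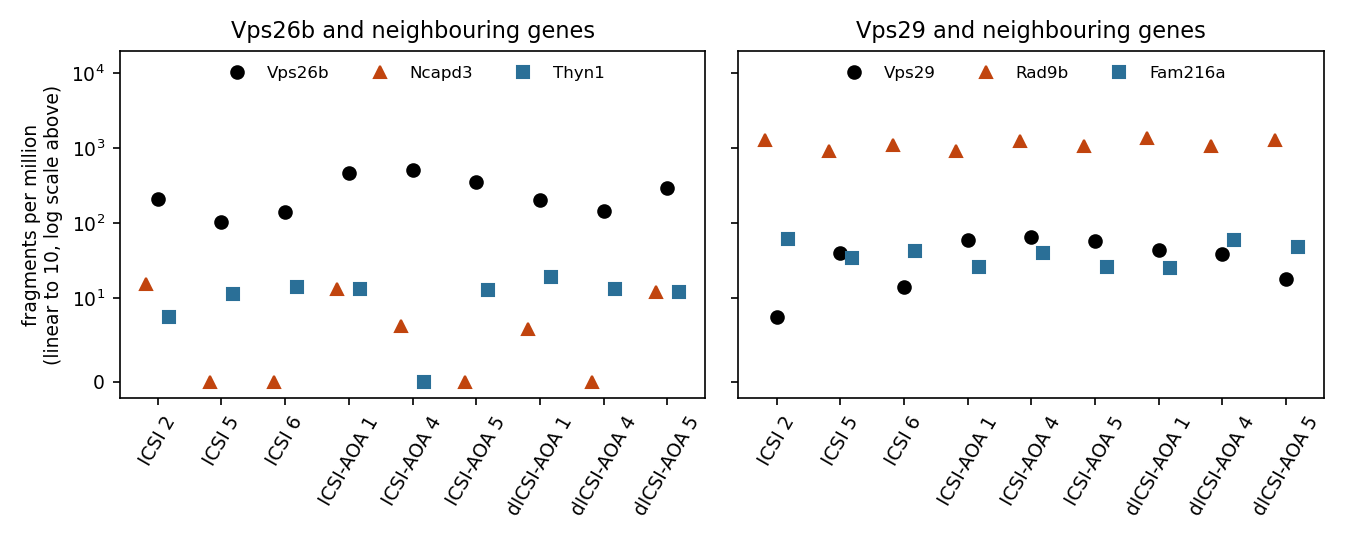
CPM in each of the 9 libraries for Vps26b with Ncapd3 and Thyn1 (left) and for Vps29 with Rad9b and Fam216a (right), on an axis that is linear to 10 and logarithmic above. Vps26b reaches 356 to 512 in the ICSI-AOA libraries, while its neighbours stay near the value of a few fragments.

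The 5 genes whose levels across the 9 libraries were most like those of Vps26b, of 1880 genes with a mean of at least 10 fragments, were 6430550D23Rik (r = 0.92), Acsm3 (r = 0.92), Vps13b (r = 0.88), Synj2 (r = 0.87) and Ddit3 (r = 0.87). The median over all these genes was r = −0.02, and 14 genes had r over 0.8. Vps13b, a lipid transfer protein of the Golgi, had 51, 54 and 45 fragments in ICSI, 64, 78 and 72 in ICSI-AOA, with 65, 46 and 66 in dICSI-AOA. Synj2, a phosphoinositide phosphatase of vesicle traffic, had 6, 8 and 6, then 13, 16 and 12, then 9, 8 and 16. Acsm3, a mitochondrial acyl-CoA synthetase, had 18, 11 and 13 fragments in ICSI, 28, 23 and 25 in ICSI-AOA, with 19, 13 and 22 in dICSI-AOA. Ddit3, the stress-induced factor CHOP, had 10, 10 and 5, then 17, 19 and 14, then 12, 6 and 14. In all 5 genes the ICSI-AOA libraries had more fragments than the ICSI libraries, which the choice by likeness to Vps26b favours and which is no separate result. Exons of 6430550D23Rik, Acsm3, Vps13b and Synj2 overlap those of Cep250, Eri2, Cox6c and Serac1 on the other strand by 1149, 1962, 250 and 297 bp, so the likeness may belong to either gene of a pair, and this was not tested.

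The surrounding sorting pathway was covered by 7 lists: the WASH complex, recruitment and regulation of retromer, retriever with the COMMD-CCDC22-CCDC93 complex, other sorting nexins, cargo receptors and transporters, the HOPS and CORVET tethers, and the GARP and EARP tethers. Of their genes 14 could be tested. Against ICSI, 0 of the 14 were called in either direction in the ICSI-AOA group, where 3% of all tested genes were called higher and 4.07% lower, and also 0 in the dICSI-AOA group, where 3.07% of all tested genes were called higher and 3.51% lower. In dICSI-AOA against ICSI-AOA, 1 was called higher and 0 lower, beside 3.62% and 3% of all tested genes. The median log2 difference of the 14 was 0.02, 0.07 and −0.18 in these comparisons, against −0.02, −0.01 and −0.02 over all tested genes. DESeq2 called 0 of the 14 in each comparison. Limma on log2(FPKM + 1), with the deposited scaling, called 2, 3 and 1 of them higher and 0 lower in the same order, beside 6.25%, 9.11% and 3.83% of all tested genes called higher in those fits.

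The gene called was Snx32, a sorting nexin of the BAR family, which rose in dICSI-AOA against ICSI-AOA by 1.34 (SE 0.59, edgeR adjusted p = 0.690). It had 5, 7 and 2 fragments in ICSI, 3, 1 and 8 in ICSI-AOA, with 10, 8 and 14 in dICSI-AOA. In CPM the dICSI-AOA libraries were all above the ICSI-AOA libraries, by little for the pair with 8 fragments each, as in 5.34% of tested genes. Its exons overlap those of Cfl1, the abundant actin-binding protein cofilin, by 468 bp on the opposite strand. Cfl1 had 5 fragments in all libraries together, against 58 for Snx32. The call was lost with DESeq2 (log2 difference 1.36) and without ICSI-AOA library 1 (1.18), ICSI-AOA library 4 (0.90) or dICSI-AOA library 5 (1.13), and Snx32 was not tested at an FPKM minimum of 5. Without ICSI-AOA library 5 the difference was 2.30.

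Igf2r, the cation-independent mannose 6-phosphate receptor and a classic cargo of retromer, had 4, 14 and 10 fragments in ICSI, 13, 8 and 7 in ICSI-AOA, with 16, 15 and 11 in dICSI-AOA. The groups overlapped, and its differences were −0.09 (SE 0.46, edgeR adjusted p = 0.991), 0.45 (SE 0.44, adjusted p = 0.912) and 0.54 (SE 0.44, adjusted p = 0.866) in ICSI-AOA against ICSI, dICSI-AOA against ICSI and dICSI-AOA against ICSI-AOA. On the FPKM scale the receptor was 0.312 to 1.17 in ICSI, 15.5 to 22.1 in ICSI-AOA and 10.3 to 71.3 in dICSI-AOA, with no overlap between ICSI and the others. How many tested genes separated from ICSI in FPKM was not counted. The FPKM that 1 estimated count of Igf2r was worth differed 43.0-fold between libraries, where that of Vps26b was nearly constant. With limma on log2(FPKM + 1) Igf2r was called higher than in ICSI in both ionomycin groups, by 3.42 (SE 0.61, adjusted p = 0.413) in ICSI-AOA and by 3.58 (SE 0.61, adjusted p = 0.156) in dICSI-AOA. M6pr, the cation-dependent receptor of the same ligand, had 6, 8 and 7 fragments per group and was below the filter.

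Among the 23 other sorting nexins 7 were at 0 in all libraries, and most had few fragments. Snx22, named here after its values were seen, had 6270 fragments in all, between 635 and 879 per library. Its exons overlap by 825 bp those of Ppib, a cyclophilin of the endoplasmic reticulum on the opposite strand, which had 10 fragments. Snx21, also named after its values were seen, had 1197 and overlaps Acot8 by 246 bp. Without the strand setting, fragments of Snx22 and Ppib cannot be told apart. The HOPS and CORVET tethers, which act in endosomal fusion, had 23 fragments over 10 genes and no gene that could be tested.

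**Figure D4:**
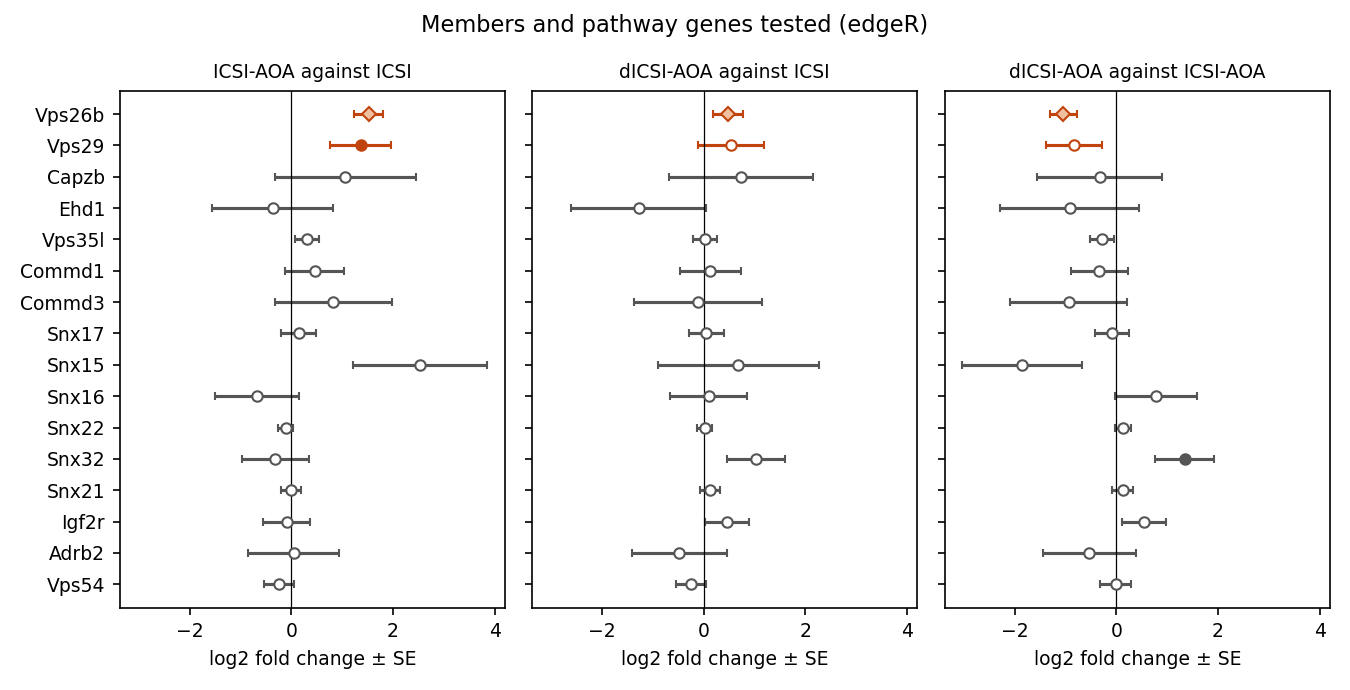
Log2 fold change ± SE from edgeR for Vps26b, Vps29 and the 14 pathway genes that could be tested, in 3 comparisons. Filled circles passed a fold change of 1.3 and p under 0.05, open circles did not, and Vps26b is drawn as a diamond with no call because it was chosen on these values. Vps29 is filled in ICSI-AOA against ICSI (1.37) and Snx32 in dICSI-AOA against ICSI-AOA (1.34).

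Summed markers of the trophectoderm, the outer epithelium of the blastocyst, were lower in both ionomycin groups than in ICSI. Of the 137 fragments of these markers over all libraries, Elf5 held 64 and Krt8 held 47. The summed fragments of 8 such markers were 17 to 35 in the ICSI libraries, 6 to 10 in ICSI-AOA and 11 to 16 in dICSI-AOA, and 4 of the 8 (Gata3, Eomes, Tfap2c and Tead4) were at 0 throughout. Krt8 and Elf5 could be tested. Krt8, an epithelial keratin, fell in ICSI-AOA against ICSI (log2 difference −2.15, edgeR adjusted p = 0.415), where 4.07% of tested genes were called lower. It also fell in dICSI-AOA against ICSI (−1.69, edgeR adjusted p = 0.513), where 3.51% were called lower. Its libraries did not overlap with ICSI in either, as in 13.3% and 11.4% of tested genes, counting both directions. Elf5, a transcription factor of the trophoblast, had 2, 24 and 5 fragments in ICSI and 4, 4 and 3 in ICSI-AOA. These groups overlapped. The call of Elf5 as lower in ICSI-AOA (−1.53, edgeR adjusted p = 0.599) rested on ICSI library 5, without which the difference was −0.11. The call was also lost without ICSI-AOA library 5 (−1.41), with only the libraries compared (−1.52) and with DESeq2 (−1.53). Limma on FPKM lost it too, at −0.22 with a pseudocount of 1 and −0.12 with 0.1. In dICSI-AOA Elf5 had 8, 5 and 9 fragments and was not called against ICSI (−0.59, edgeR adjusted p = 0.912). Without ICSI library 5 that difference was 0.82. The part of cell makeup in the Vps26b and Vps29 values was not tested. Epiblast markers summed to 0 to 2 fragments in any library, with Pou5f1, Nanog, Sox2, Fgf4 and Esrrb at 0, and primitive endoderm markers to 1 to 7, with Sox17, Sox7 and Lama1 at 0. The blastocyst label could not be checked against its inner cell markers. The parts of depth and of the strand setting in these zeros were not tested. Cumulus cell markers summed to 0 to 2, and the 6 sperm and spermatid markers were at 0 in every library.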

How the data were processed

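Paired-end reads from total RNA were trimmed by the authors with cutadapt 1.9.3, aligned to mm10 with HISAT2 and quantified with Cuffdiff. The deposited table holds FPKM and estimated counts per gene and library. Versions of the aligner and of Cuffdiff are not given in the sources used here, nor is the strand setting of the counting. The labels name a TruSeq and the study a SMARTer kit, both stranded. The deposited estimated counts rose in steps of a single size per library. Dividing by that step gave fragments, whole within 0.01 for 95.7% to 96.2% of values, which were rounded to whole numbers.

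The 4304 genes whose FPKM averaged 1 or more were tested on all 9 libraries in 1 fit with edgeR 4.0.16 in R 4.3.3 (quasi-likelihood, TMM scaling, two-sided). A gene was called at a fold change over 1.3 and unadjusted p under 0.05, after the study's methods, with Benjamini-Hochberg values beside it. These p-values measure the spread between the libraries as labelled. Alternatives used DESeq2 1.42.0, limma 3.58.1, other scalings and filters, and each library left out. On simulated fragments at this depth, with 200 genes changed, the ICSI-AOA against ICSI test called 46% of 2-fold changes and 84% of 4-fold changes. It also called 4.41% of unchanged genes. These shares are over tested genes of all levels and were not split by level.

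The genes, lists and tests were chosen with earlier results of these data known. Named were the 9 genes, genes with antisense exon overlap of at least 100 bp, called pathway genes, Igf2r, M6pr, and the 5 genes most like Vps26b by Pearson r of log2 CPM (prior count 2). Exons and coordinates are from GENCODE on mm10.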

Additional observations from a re-analysis of the deposited data

Results flagged for a closer look

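Snx32 was the 1 gene called of the 14 pathway genes tested between the groups that received ionomycin. That is 7.14%, near the 6.62% called among all tested genes. Its effect against ICSI in dICSI-AOA minus that in ICSI-AOA was 1.34 on the log2 scale (edgeR adjusted p = 0.690, past the unadjusted threshold), and all 3 dICSI-AOA libraries were above all 3 ICSI-AOA libraries in CPM. With 3 libraries in each group, single libraries were not tested as outliers.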

How the results depend on the processing

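The directions of Vps26b and Vps29 held in every alternative in which they were fitted, all of which reuse the same libraries. For Vps26b the direction in comparisons with ICSI-AOA follows from how it was chosen and is no separate result. Of genes other than Vps26b, 1 was called in ICSI-AOA against ICSI. With no filter 2 were called, and 0 with an FPKM minimum of 5 or with DESeq2; leaving out 1 library gave 0 to 1. In dICSI-AOA against ICSI the count of 0 became 1 with no filter (Snx27) and 1 with limma at either pseudocount (Vps29), and it was 0 for every library left out. In dICSI-AOA against ICSI-AOA it was 0 under all alternatives. Over all tested genes, the 304 calls in ICSI-AOA against ICSI became 529 with no filter, 157 with an FPKM minimum of 5 and 146 with DESeq2. The 283 in dICSI-AOA against ICSI became 467, 135 and 133 in that order, 555 with the deposited scaling, and 434 and 425 with limma at pseudocounts of 1 and 0.1. The 285 in dICSI-AOA against ICSI-AOA became 503, 134 and 121 in the order of the first comparison. Leaving out 1 library gave 241 to 325, 240 to 339 and 217 to 347 calls. The no-filter count tests more genes and the FPKM minimum of 5 fewer; for DESeq2, limma and the scaling the cause was not tested. The median of all tested genes moved by over 0.1 with the deposited scaling and with limma on FPKM, as given beside Vps26b and Vps29. At an adjusted p of 0.05, 1, 1 and 6 genes passed, 18, 24 and 19 with no filter, and 0 to 16 with 1 library left out. The 1 gene in ICSI-AOA against ICSI in the main fit was Vps26b, chosen for that rise.

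The labels do not say whether replicate numbers shared by the ionomycin groups pair the libraries. Deviations of same-numbered libraries from their group means had r = 0.079, 0.0024 and 0.053. Differently numbered libraries had r from −0.076 to 0.028. So few correlations cannot decide whether the libraries were paired. With the replicate block, 286 genes were called and 19 passed an adjusted p of 0.05, against 285 and 6 in the main fit. The members called other than Vps26b stayed at 0, and the Vps29 difference was −0.85 (edgeR adjusted p = 0.859). Depth limits every statement on the 7 genes with 10 fragments or fewer, and Vps29 rests on 54.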
